A study of Mus musculus with 9 samples.

Results

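The receptors described here are 8 G protein-coupled receptors for lysolipids, protons and peptides, several of them still classed as orphans, measured in regulatory T cells (Tregs, the FOXP3-expressing T cells that restrain immune responses) of the mouse spleen. They are P2ry10, Gpr174, Gpr132, Gpr65, Gpr55, Gpr18, Gpr83 and Gpr171, found by symbol as 8 of the 23393 gene rows of the count tables, and all 8 were detected well enough to be tested. They were picked by name with their levels in these groups already known, so their levels and fold changes are given as a description and carry no test. The study concerns ST2+ Tregs in the kidney after ischemia, and it sequenced RNA of sorted Tregs in 3 groups of 3 libraries. These were ST2KO Tregs, wild-type Tregs sorted as ST2-high, and wild-type Tregs sorted as ST2-low. The gene of ST2, the receptor that binds the alarmin interleukin-33, is Il1rl1. The labels give spleen and Tregs for all 9 libraries, and no strain, age, sex, agent, time after injury, deletion design or sorting gate. Nothing in them says that the libraries of a group came from separate mice, so the spread between replicates, and every p-value based on it, may be technical.

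G protein-coupled receptors pass a ligand's signal to heterotrimeric G proteins. Receptors that couple to G12/13 act on the cytoskeleton and can alter lymphocyte migration, while those that couple to Gs raise cyclic AMP through adenylyl cyclases and dampen T cell activation. P2ry10 and Gpr174 are receptors for lysophosphatidylserine, and Gpr174 is known to restrain Treg accumulation and function in mice. Gpr65 senses extracellular protons and signals through Gs, and Gpr132, of the same family, has been linked to lysophosphatidylcholine, oxidised fatty acids and lactate. Gpr55 responds to lysophosphatidylinositol, and Gpr18 has been proposed to bind N-arachidonoyl glycine. Gpr83, long known as a Treg-associated transcript, and Gpr171 have been proposed to bind peptides cut from the proSAAS precursor.

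RefSeq promoter windows (GRCm38.p6, 300 bases each, spanning a start site) were held for 7 of the 8 receptors, Gpr171 being the one without, and gave 8 windows. Those of the 3 receptors that gave the most reads are shown, because Gpr132 and P2ry10 were below both wild-type groups in ST2KO Tregs while Gpr174 was above them. Each is read 5′ to 3′ on the gene's strand. The window of Gpr132 is chr12:112860867-112861166 on the minus strand, the first window of P2ry10 is chrX:107088242-107088541 on the plus strand, and that of Gpr174 is chrX:107284096-107284395 on the plus strand. Capitals mark the RUNX letters TGTGGTT.
Gpr132: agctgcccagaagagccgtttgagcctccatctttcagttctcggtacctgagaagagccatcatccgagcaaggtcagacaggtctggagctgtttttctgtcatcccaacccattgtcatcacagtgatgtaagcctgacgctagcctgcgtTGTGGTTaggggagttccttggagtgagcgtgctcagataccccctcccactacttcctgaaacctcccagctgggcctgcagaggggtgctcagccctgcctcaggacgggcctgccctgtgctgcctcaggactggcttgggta
P2ry10: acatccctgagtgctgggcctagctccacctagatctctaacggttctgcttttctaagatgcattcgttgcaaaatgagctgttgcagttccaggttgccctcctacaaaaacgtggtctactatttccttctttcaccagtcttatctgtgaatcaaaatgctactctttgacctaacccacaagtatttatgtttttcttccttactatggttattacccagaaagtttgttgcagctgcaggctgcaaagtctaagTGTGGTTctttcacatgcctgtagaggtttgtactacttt
Gpr174: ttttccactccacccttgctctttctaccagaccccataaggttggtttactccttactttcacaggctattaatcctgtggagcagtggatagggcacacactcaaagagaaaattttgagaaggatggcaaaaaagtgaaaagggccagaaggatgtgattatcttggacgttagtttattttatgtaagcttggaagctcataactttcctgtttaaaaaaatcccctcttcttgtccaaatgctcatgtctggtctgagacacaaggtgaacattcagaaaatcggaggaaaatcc
The letters start at position -96 of Gpr132 and at position 10 of P2ry10, counted from the start site, and Gpr18 holds them on the opposite strand at position -32. Neither the second window of P2ry10 nor the windows of Gpr65, Gpr55 and Gpr83 hold them. Gpr65 was also below both wild-type groups in ST2KO Tregs. The same letters occur on either strand in 5.27% of 32851 windows of the same length. The window of Gpr174 holds none of the motifs searched on both strands, which were RUNX, AP-1 (TGACTCA, in 5.20% of all windows), the cyclic AMP response element (TGACGTCA, 1.79%), ETS (CCGGAAG, 8.86%), forkhead (TGTTTAC, 3.65%) and one form of the NF-kB site (0.155%), and no motif but RUNX was found in the windows of the members. The windows of Gpr132 and Gpr174 lie inside the longer GENCODE M21 models of these genes, so other start sites exist. A match of letters is a description of the window and shows no bound factor.

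Total counts ran between 11659659 and 43406680 per library, the lowest and the highest both being ST2KO libraries, and levels are given as CPM, counts scaled to library size with TMM factors. Il1rl1 was at 57.7, 61.4 and 83.6 CPM in the libraries labelled ST2KO, at 516, 421 and 547 CPM in ST2-high and at 2.16, 3.59 and 2.11 CPM in ST2-low. A count per gene does not tell a deleted exon from the rest of the transcript, so this level does not check the knockout label. Foxp3, the defining Treg factor, was at 410 to 443 CPM in ST2KO, 532 to 622 CPM in ST2-high and 445 to 478 CPM in ST2-low. None of the 10 Treg markers was at 0 in any group, and their sum was 4590 to 4710 CPM in ST2KO, 7190 to 7620 CPM in ST2-high and 6460 to 6640 CPM in ST2-low, with 3 rising and 4 falling in ST2KO against ST2-low. The sum of 16 myeloid and dendritic markers was 98.4 to 108 CPM in ST2KO, 209 to 219 CPM in ST2-high and 224 to 264 CPM in ST2-low, with none at 0, and 12 of the 14 tested fell in ST2KO against ST2-low. The 12 B cell markers, none at 0, summed to 115 to 147 CPM in ST2KO, 150 to 184 CPM in ST2-high and 132 to 194 CPM in ST2-low, with 7 of 12 falling in ST2KO against ST2-low. Of all tested genes, 33.0% rose and 29.3% fell in that comparison. The 7 neutrophil markers in the files summed to 2.62 to 4.21 CPM in ST2KO, 12.3 to 20.3 CPM in ST2-high and 9.15 to 36.7 CPM in ST2-low. NK cell markers summed to 21.7 to 29.4, 22.4 to 25.6 and 30.7 to 31.2 CPM in ST2KO, ST2-high and ST2-low, with Klra8 and Klra4 at 0. Erythroid and platelet markers summed to 18.1 to 24.0, 14.4 to 17.9 and 18.6 to 28 CPM in the same order, with Hba-a1 and Hbb-b1 at 0. ST2-high replicate 3 stood apart from its 2 fellow libraries, with a chi-square per gene of 16.5 and 19.9. All other replicate pairs were at 4.46 to 8.22. The ribosomal precursor Rn45s made up 16.7% of counts in ST2-high replicate 3 and 12.1% in ST2-high replicate 2, with replicate 1 between them. Its share ran from 12.1% to 16.9% over all libraries. The part of Rn45s in these chi-square values was not tested.

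Per kilobase of exon, P2ry10 and Gpr132 were the most abundant of the 8 receptors in every group and Gpr55 the least abundant. The lengths were those of all GENCODE M21 exons of a gene together. The annotation behind the counts was not given, so ranks between genes could differ with other lengths. P2ry10 averaged 145 ± 4.24 CPM per kilobase in ST2KO, 338 ± 26.3 in ST2-high and 376 ± 18.1 in ST2-low (SD, n = 3 each here and below). Gpr132 averaged 69.2 ± 1.72 CPM per kilobase in ST2KO, 318 ± 16.1 in ST2-high and 298 ± 10.4 in ST2-low, so the neighbours P2ry10 and Gpr132 differed by less than their summed SDs in ST2-high and by more in the other 2 groups. Next in ST2KO came Gpr174, at 41.2 ± 1.70 CPM per kilobase, and it stood at 30.8 ± 0.646 in ST2-high, below Gpr65 at 42.5 ± 1.89. In ST2-low, Gpr174 at 30.3 ± 1.40 and Gpr65 at 28.3 ± 0.906 CPM per kilobase differed by less than their summed SDs. Gpr65, Gpr18 and Gpr83 lay together in ST2KO, at 17.8 ± 1.65, 16.0 ± 0.724 and 15 ± 0.762 CPM per kilobase, each within the summed SDs of its neighbour. In the wild-type groups Gpr83 was second from last, at 5.17 ± 0.762 in ST2-high and 8.37 ± 0.462 CPM per kilobase in ST2-low. Gpr171 averaged 9.93 ± 0.832, 17.8 ± 1.34 and 15 ± 0.387 CPM per kilobase in ST2KO, ST2-high and ST2-low, and Gpr18 in the wild-type groups averaged 16.5 ± 3.61 in ST2-high and 20.7 ± 0.943 in ST2-low. Gpr55 averaged 2.87 ± 0.031 CPM per kilobase in ST2KO and 1.31 ± 0.179 in ST2-low. In ST2-high the last 2 places were not separated beyond their spread, since Gpr55 was at 5 ± 0.715 CPM per kilobase. Summed over the 8 genes, the level was 1013 ± 11.2 CPM in ST2KO, 2234 ± 40.6 CPM in ST2-high and 2266 ± 72.0 CPM in ST2-low. Of that sum Gpr174 made up 22.0% ± 1.08 in ST2KO, 7.44% ± 0.0634 in ST2-high and 7.22% ± 0.346 in ST2-low, and Gpr132 made up 18.5% ± 0.380, 38.7% ± 2.66 and 35.7% ± 0.652 in the same order.

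**Figure D1:**
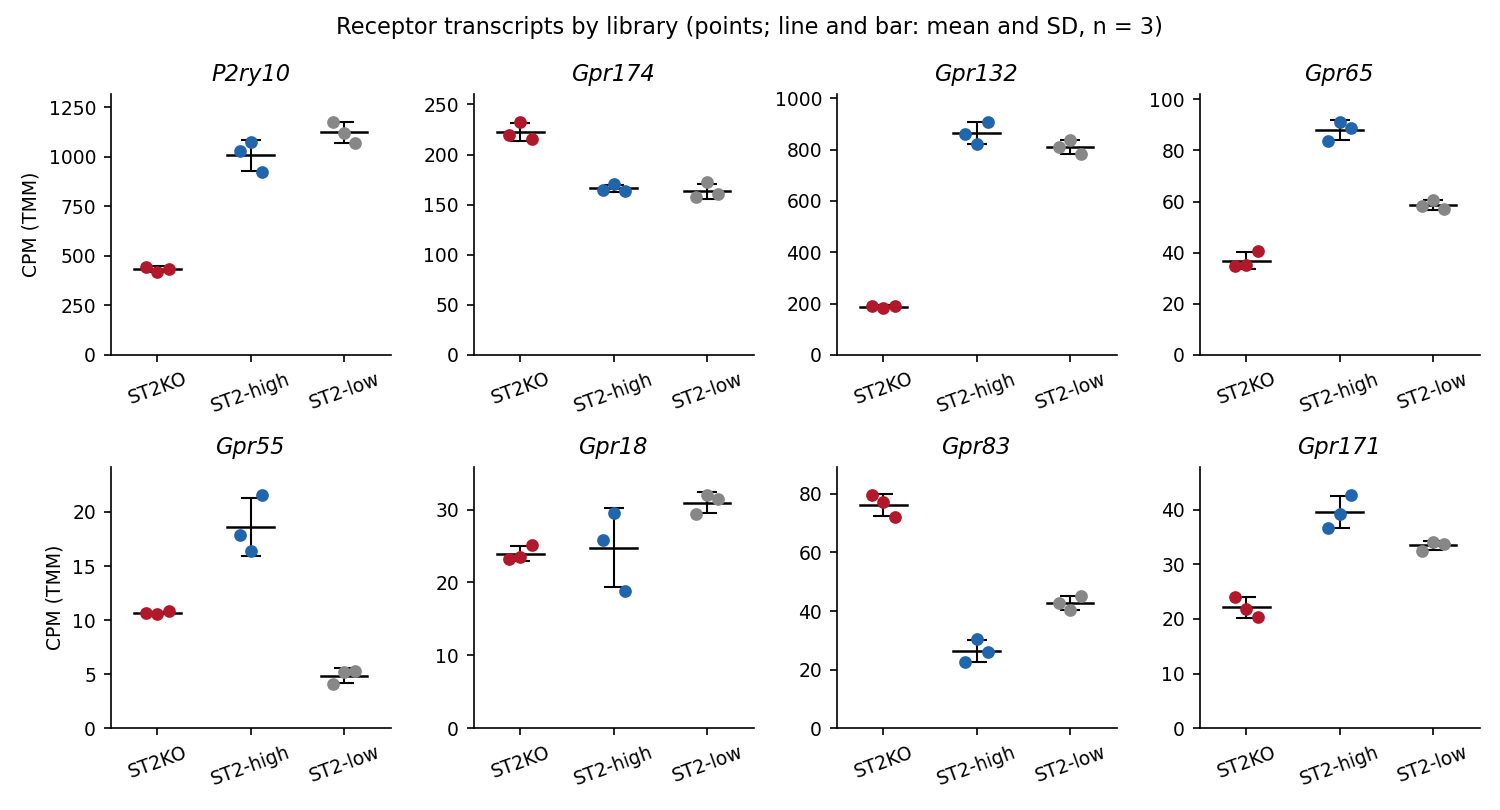
Level of each of the 8 receptors in CPM (vertical axis, linear from 0, scaled for each gene) in the 3 libraries of ST2KO, ST2-high and ST2-low; points are libraries, bars the mean and SD. Gpr132 and P2ry10 sit far lower in ST2KO than in both wild-type groups, Gpr174 and Gpr83 sit higher, and Gpr55 shows 3 separate levels, with ST2-high at the top and ST2-low at the bottom.

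The lysophosphatidylserine receptors were compared first. P2ry10 read 444, 419 and 436 CPM in ST2KO replicates 1, 2 and 3, against 1029, 1072 and 920 CPM in ST2-high and 1177, 1120 and 1069 CPM in ST2-low. All 3 ST2KO libraries lay below all 6 wild-type libraries, and the ST2-high and ST2-low values overlapped. The log2 fold change was -1.37 ± 0.06 (SE) for ST2KO against ST2-low and -1.22 ± 0.06 for ST2KO against ST2-high, which is 2.59-fold and 2.33-fold lower in ST2KO. For ST2-high against ST2-low it was -0.16 ± 0.06, and -0.10 without ST2-high replicate 3. In bulk RNA such as this, fewer cells that express a receptor and less of its RNA per cell cannot be told apart. P2ry10 is also expressed by B cells. Their markers summed to 115 to 147 CPM in ST2KO, which lay below ST2-high at 150 to 184 CPM and overlapped ST2-low at 132 to 194 CPM. The part of B cells in the result was not tested.

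Gpr174 went the other way. It read 220, 233 and 215 CPM in ST2KO, against 165, 170 and 164 CPM in ST2-high and 158, 172 and 160 CPM in ST2-low. Every ST2KO library lay above every wild-type library, and the wild-type groups overlapped. In log2 terms the difference was 0.45 ± 0.05 for ST2KO against ST2-low and 0.42 ± 0.05 for ST2KO against ST2-high, or 1.36-fold and 1.34-fold higher in ST2KO, while ST2-high against ST2-low gave 0.02 ± 0.05. P2ry10 and Gpr174 are neighbours on the X chromosome. In GENCODE M21 (GRCm38) both lie on the plus strand, Gpr174 starts 167.4 kb after the start of P2ry10, and the sole protein-coding gene between them is P2ry10b, which starts at 60.4 kb. Over the longest open reading frames, Gpr174 shares 56.9% of aligned bases with P2ry10, and P2ry10b shares 80.1% with P2ry10. The other pairs among the 8 receptors and P2ry10b share 52.4% to 61.4%, the highest being the X-linked pair Gpr174 and P2ry10b. Pairs on different chromosomes share 52.4% to 60.1%, and the value for Gpr174 and P2ry10 lies within that range.

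The other 2 lysophosphatidylserine receptors of the mouse, Gpr34 and P2ry10b, were not members and were tested. Gpr34 rose in ST2KO Tregs, at 22.8, 20.1 and 20.1 CPM against 5.09, 5.10 and 4.88 CPM in ST2-high and 8.38, 6.07 and 5.63 CPM in ST2-low. It was 3.16-fold higher than in ST2-low (log2 fold change 1.66 ± 0.13, adjusted p = 3.91e-12 in the quasi-likelihood test of edgeR, adjusted by Benjamini-Hochberg over 12219 genes) and 4.19-fold higher than in ST2-high (2.07 ± 0.14, edgeR adjusted p = 4.67e-14). P2ry10b, listed under its older symbol A630033H20Rik, averaged 12.2 ± 2.28 CPM in ST2KO, 9.13 ± 1.69 CPM in ST2-high and 9.71 ± 1.31 CPM in ST2-low. Its edgeR adjusted p was 0.0399 for ST2KO against ST2-low, and between 0.0086 and 0.257 over the alternative settings, the call being lost in 9 of 18: with DESeq2's size factors or its Wald test, the filter of 5 CPM or a replicate block, and without ST2KO replicate 1 or 2, ST2-high replicate 1 or ST2-low replicate 1 or 2. For ST2KO against ST2-high it was 0.0126, and between 0.00255 and 0.101 over the alternatives, the call being lost without ST2KO replicate 1 or 2 or ST2-high replicate 3. P2ry10 and P2ry10b share 113 overlapping stretches of 50 identical bases, counted at each base, so a longer identical run holds many of them. They are 3.79% of such stretches in P2ry10 and 3.27% of those in P2ry10b, so some reads could have been split between these genes. The lysophosphatidylserine receptors thus included 1 that was lower in ST2KO and 2, Gpr174 and Gpr34, that were higher, with P2ry10b near its threshold.

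**Figure D2:**
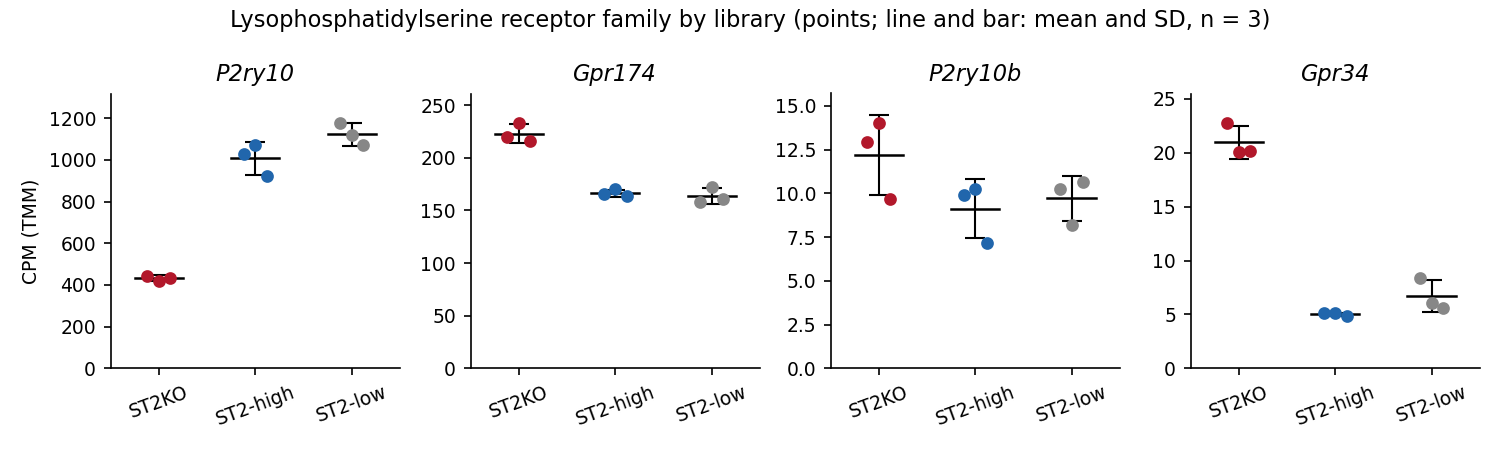
Level in CPM (vertical axis, from 0) of the lysophosphatidylserine receptors in each of the 9 libraries, by group, with mean and SD over 3 libraries. The 3 ST2KO libraries of Gpr34, at 20.1 to 22.8 CPM, lie above every wild-type library, while those of P2ry10, at 419 to 444 CPM, lie below every wild-type library.

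Gpr132 showed the widest gap of the 8 receptors. It read 189, 183 and 192 CPM in ST2KO, against 859, 822.5 and 909 CPM in ST2-high and 812, 837 and 781 CPM in ST2-low. The ST2KO libraries lay close together and far below the wild-type libraries, whose 2 groups overlapped. The log2 fold change was -2.11 ± 0.05 for ST2KO against ST2-low, 4.31-fold lower, and -2.20 ± 0.05 for ST2KO against ST2-high, 4.60-fold lower, and it was 0.09 ± 0.05 for ST2-high against ST2-low. Gpr132 is also known from macrophages, and the myeloid and dendritic markers moved with it, at 98.4 to 108 CPM in sum in ST2KO against 209 to 264 CPM over the wild-type libraries. Gpr132 itself stood at 781 to 909 CPM in those wild-type libraries, and the part of myeloid RNA in its difference was not tested.

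Gpr65, the Gs-coupled proton sensor, separated all 3 groups. It read 34.7, 35.0 and 40.8 CPM in ST2KO, against 83.7, 91.3 and 88.9 CPM in ST2-high and 58.1, 60.7 and 57.0 CPM in ST2-low. ST2KO was lowest, ST2-low lay between, and ST2-high was highest, with no overlap. The log2 fold change was -0.68 ± 0.07 for ST2KO against ST2-low, -1.27 ± 0.07 for ST2KO against ST2-high and 0.58 ± 0.07 for ST2-high against ST2-low, the last being 1.5-fold higher in ST2-high. In GENCODE M21 an antisense gene, Gm47566, covers 24.7% of the exon bases of Gpr65, and with no strand setting given its reads cannot be told from those of Gpr65.

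Gpr55, the lysophosphatidylinositol receptor, had low levels that differed in all 3 groups. It read 10.6, 10.6 and 10.8 CPM in ST2KO, against 17.8, 16.4 and 21.6 CPM in ST2-high and 4.11, 5.24 and 5.28 CPM in ST2-low. The groups did not overlap, with ST2-high highest and ST2-low lowest. On the log2 scale the difference was 1.13 ± 0.14 for ST2KO against ST2-low, 2.18-fold higher, and -0.80 ± 0.12 for ST2KO against ST2-high, 1.74-fold lower. For ST2-high against ST2-low it was 1.92 ± 0.14, the widest gap between the wild-type groups among the 8 receptors. The counts behind it were 76 to 105 reads in ST2-low. The opposite-strand gene 4933407L21Rik shares 71 exon bases, 1.91% of those of Gpr55, and averaged 1.60 ± 0.269 CPM in ST2KO, 0.794 ± 0.133 CPM in ST2-high and 0.349 ± 0.262 CPM in ST2-low.

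Gpr18, the proposed N-arachidonoyl glycine receptor, differed little between groups. It read 23.2, 23.4 and 25.2 CPM in ST2KO, against 25.8, 29.5 and 18.9 CPM in ST2-high and 29.3, 32.0 and 31.5 CPM in ST2-low. ST2KO lay below ST2-low in every library, and ST2-high overlapped both other groups, with its replicate 3 the lowest of the 9 libraries. The log2 fold change was -0.38 ± 0.11 for ST2KO against ST2-low, -0.06 ± 0.11 for ST2KO against ST2-high and -0.31 ± 0.11 for ST2-high against ST2-low, the last being -0.17 without ST2-high replicate 3. Gpr18 lies within Ubac2 on the opposite strand with no shared exon bases, and Ubac2 went the other way in ST2KO, at 81.0 ± 2.49 CPM against 63.0 ± 2.57 CPM in ST2-high and 70.4 ± 2.04 CPM in ST2-low.

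The proposed peptide receptors Gpr83 and Gpr171 pointed in opposite directions. Gpr83 read 79.5, 77.0 and 71.9 CPM in ST2KO, against 22.6, 30.3 and 26.2 CPM in ST2-high and 42.7, 40.3 and 45.0 CPM in ST2-low. Its order was ST2KO highest and ST2-high lowest, with no overlap. The fitted log2 difference was 0.84 ± 0.08 for ST2KO against ST2-low, 1.79-fold higher, 1.55 ± 0.08 for ST2KO against ST2-high, 2.93-fold higher, and -0.71 ± 0.08 for ST2-high against ST2-low. Gpr83 thus ran opposite to Gpr65 in all 3 comparisons.

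Gpr171 read 24.1, 21.9 and 20.4 CPM in ST2KO, against 36.7, 39.3 and 42.7 CPM in ST2-high and 32.5, 34.2 and 33.7 CPM in ST2-low. ST2KO was lowest and ST2-high highest, without overlap. The fitted log2 difference was -0.58 ± 0.08 for ST2KO against ST2-low, -0.81 ± 0.08 for ST2KO against ST2-high and 0.24 ± 0.08 for ST2-high against ST2-low. Gpr171 lies within Med12l on the opposite strand with no shared exon bases, and Med12l stood at 2.93 ± 0.358 CPM in ST2KO, 3.42 ± 0.412 CPM in ST2-high and 2.69 ± 0.371 CPM in ST2-low.

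Counted together, 8 of 8 receptors passed the edgeR threshold (adjusted p under 0.05) for ST2KO against ST2-low, where 62.3% of all tested genes did; 3 were higher and 5 lower in ST2KO, against 33.0% and 29.3% of all tested genes. For ST2KO against ST2-high 7 of 8 passed, 2 higher and 5 lower, where 64.5% of all tested genes did, with 31.9% higher and 32.6% lower. For ST2-high against ST2-low 6 of 8 passed, 3 higher and 3 lower, where 26.1% of all tested genes did, with 15.3% higher and 10.8% lower. Groups did not overlap for 8, 7 and 4 of the 8 receptors in these 3 comparisons, where 67.2%, 66.8% and 38.1% of all tested genes did not. The median log2 fold change of the 8 was -0.48 for ST2KO against ST2-low, -0.81 for ST2KO against ST2-high and 0.06 for ST2-high against ST2-low, where over all tested genes it was 0.05, 0.02 and -0.0024. The receptors were chosen with these values known, so nothing is read from these counts, and each pair of comparisons shares a group of libraries.

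**Figure D3:**
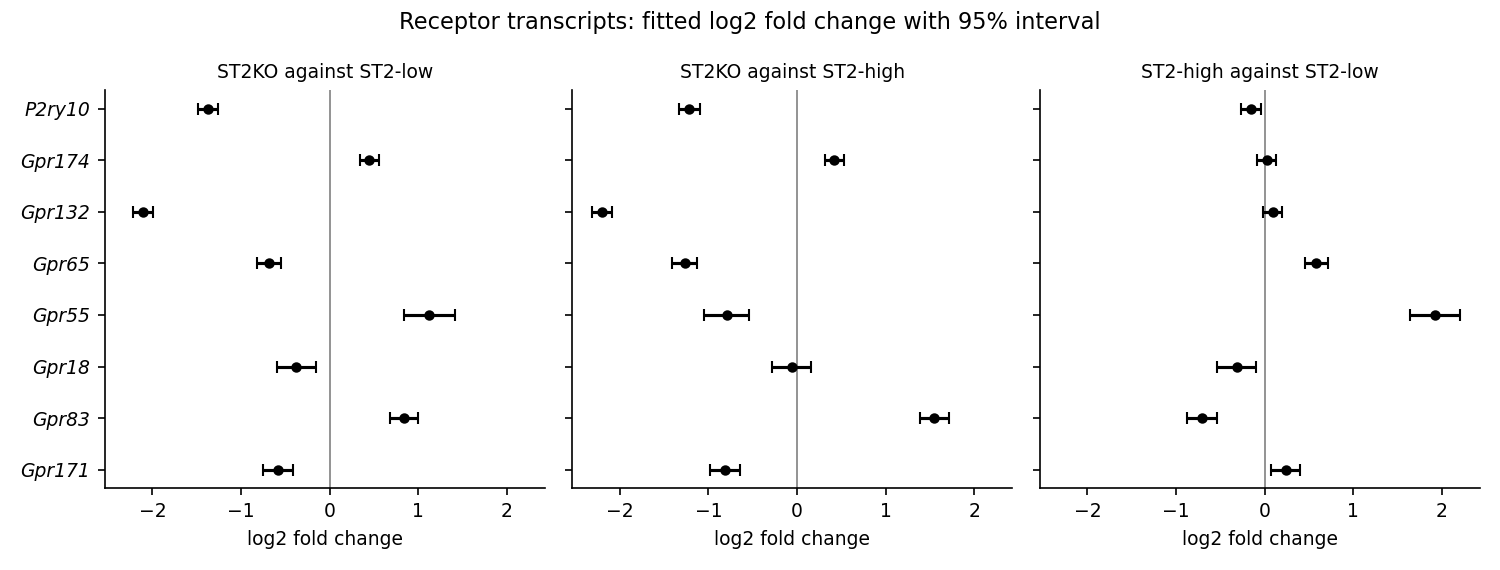
Log2 fold change of each of the 8 receptors (horizontal axis) with its 95% interval from the edgeR fit, for ST2KO against ST2-low, ST2KO against ST2-high and ST2-high against ST2-low. Gpr132 and P2ry10 lie far to the left in both ST2KO comparisons and near 0 in the wild-type comparison, and Gpr55 lies furthest to the right, at 1.92, for ST2-high against ST2-low.

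The 8 receptors thus followed several patterns over the groups. Measured as the root mean square difference of centred log2 CPM over the 9 libraries, where 0 means the same course, the closest pair was Gpr65 and Gpr171 at 0.22 and the farthest was Gpr132 and Gpr83 at 1.61. The 2 X-linked receptors P2ry10 and Gpr174 were 0.82 apart. Other tested genes were then searched for the nearest course. The search left out predicted models, unnamed clones, pseudogenes, T cell receptor and immunoglobulin segments, small RNA genes, Rn45s, Xist and several Y-linked genes. Among the genes searched, the course of Gpr132 was matched most closely by Neurl3, Ets2 and Gramd3, at 0.063, 0.098 and 0.107. That of P2ry10 was closest to Insig1, a regulator of sterol synthesis, Cd24a and Crbn, at 0.056, 0.061 and 0.069. Gpr174 ran with Herc4, Pcm1 and Ptpre at 0.031 to 0.039. Nearest to Gpr65 were Cish, a cytokine-induced suppressor of signalling, at 0.073, and Ubl3 and Nek8 at 0.085 and 0.086. The nearest to Gpr171 were H2-Q5, Irak2 and Specc1l, at 0.068 to 0.074. Gpr55 had looser matches in Ankrd6, Il17rb, a subunit of the interleukin-25 receptor, and Osbpl3, at 0.198 to 0.208. Gpr83 was nearest to Treml2, Sgk3 and Evl, at 0.124 to 0.151, and Gpr18 to Snhg1, Rcn2 and Fam84b, at 0.087 to 0.108. Genes that move little in all groups lie near any receptor that moves little, so these distances are a description over 9 libraries.

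The 8 receptors were set beside related receptors from 3 lists, of which 83 genes were in the files and 49 were tested. In ST2KO against ST2-low 20 of the 49 rose and 13 fell, in ST2KO against ST2-high 15 rose and 17 fell, and in ST2-high against ST2-low 12 rose and 5 fell. Their median log2 fold changes were 0.16, 0.07 and -0.0027 in these 3 comparisons, where those of all tested genes were 0.05, 0.02 and -0.0024. The shares called, here and in the lists that follow, can be read against the 62.3%, 64.5% and 26.1% of all tested genes given above.

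Among 22 tested receptors for lipids and metabolites, 9 rose and 3 fell in ST2KO against ST2-low, 5 rose and 9 fell against ST2-high, and 8 rose and 3 fell in ST2-high against ST2-low. S1pr1, the sphingosine 1-phosphate receptor of lymphocyte egress, averaged 386 ± 16.9 CPM in ST2KO, 704 ± 47.9 CPM in ST2-high and 935 ± 77.8 CPM in ST2-low. It fell in both ST2KO comparisons (edgeR adjusted p = 2.59e-17 against ST2-low and 1.79e-13 against ST2-high), and also in ST2-high against ST2-low (2.87e-06). Lpar5, a lysophosphatidic acid receptor, rose to 9.09 ± 0.782 CPM in ST2KO, against 1.96 ± 0.385 CPM in ST2-high and 1.62 ± 0.378 CPM in ST2-low (edgeR adjusted p = 1.04e-10 against ST2-high and 1.52e-11 against ST2-low). Tbxa2r, the thromboxane receptor, was at 19.5 ± 2.09 CPM in ST2KO, 7.07 ± 0.719 CPM in ST2-high and 9.82 ± 0.566 CPM in ST2-low and rose against both (edgeR adjusted p = 6.29e-12 for ST2-high and 1.13e-08 for ST2-low). The prostaglandin E2 receptors that couple to Gs, Ptger4 and Ptger2, rose in ST2-high against ST2-low, 1.31-fold and 1.39-fold (edgeR adjusted p = 3.65e-07 and 6.76e-05). The lipid-sensing receptors Gpr183, S1pr4 and Cnr2, picked out after their values were seen, did not pass in any comparison. Gpr183, the oxysterol receptor, was at 108 ± 5.35 CPM in ST2KO, 110 ± 3.21 CPM in ST2-high and 114 ± 3.33 CPM in ST2-low. S1pr4 was at 130 ± 7.35, 124 ± 7.75 and 120 ± 2.23 CPM in the same order, and the cannabinoid receptor Cnr2 at 18.8 ± 1.45, 16.7 ± 2.10 and 19.6 ± 1.18 CPM.

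The nucleotide receptors P2ry12, P2ry13 and P2ry14 were near the detection limit, at 0.394 to 0.816 CPM on average in ST2KO and 1.44 to 2.48 CPM in ST2-low. Against ST2-low, P2ry14 fell 3.02-fold and P2ry13 3.62-fold in ST2KO (edgeR adjusted p = 0.000123 and 0.000438), and both fell against ST2-high. P2ry12 fell against ST2-low with an edgeR adjusted p of 0.0363, which ran between 0.0258 and 0.129 over the alternatives that tested it. The call was lost with upper-quartile factors, with no filter, and without ST2KO replicate 2 or 3 or ST2-low replicate 2 or 3. These P2Y receptors are abundant in myeloid cells and platelets. The myeloid marker sums given above were lower in ST2KO than in both wild-type groups, as were P2ry13 and P2ry14. P2ry12 did not follow these sums, since it averaged 0.910 ± 0.188 CPM in ST2-high, near its 0.807 ± 0.209 CPM in ST2KO. The erythroid and platelet marker sums given above were lowest in ST2-high. The part of such cells was not tested.

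Among 23 tested orphan receptors 10 rose and 7 fell in ST2KO against ST2-low, 10 rose and 6 fell against ST2-high, and 3 rose and 2 fell in ST2-high against ST2-low. Gprc5a averaged 1.16 ± 0.477 CPM in ST2KO, 21.8 ± 0.419 CPM in ST2-high and 17.0 ± 1.39 CPM in ST2-low, a fall of 16.1-fold against ST2-high and 12.6-fold against ST2-low (edgeR adjusted p = 3.28e-19 and 6.62e-18). Gpr146, a receptor known for its role in cholesterol levels, fell to 57.0 ± 4.82 CPM in ST2KO, 2.10-fold against ST2-high and 2.18-fold against ST2-low (edgeR adjusted p = 1.86e-15 and 5.90e-16). Gpr21 rose 4.70-fold against ST2-high and 3.64-fold against ST2-low to 7.34 ± 0.473 CPM (edgeR adjusted p = 2.23e-09 and 4.09e-08). Gpr15, which guides T cells to the colon, rose 3.32-fold in ST2KO against ST2-low, at 9.08 ± 1.23 CPM against 2.72 ± 1.08 CPM (edgeR adjusted p = 3.33e-08). Gpr160 was the orphan receptor with the smallest p in the wild-type comparison, at 7.24 ± 0.293 CPM in ST2-high against 2.97 ± 0.550 CPM in ST2-low (edgeR adjusted p = 5.47e-06).

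**Figure D4:**
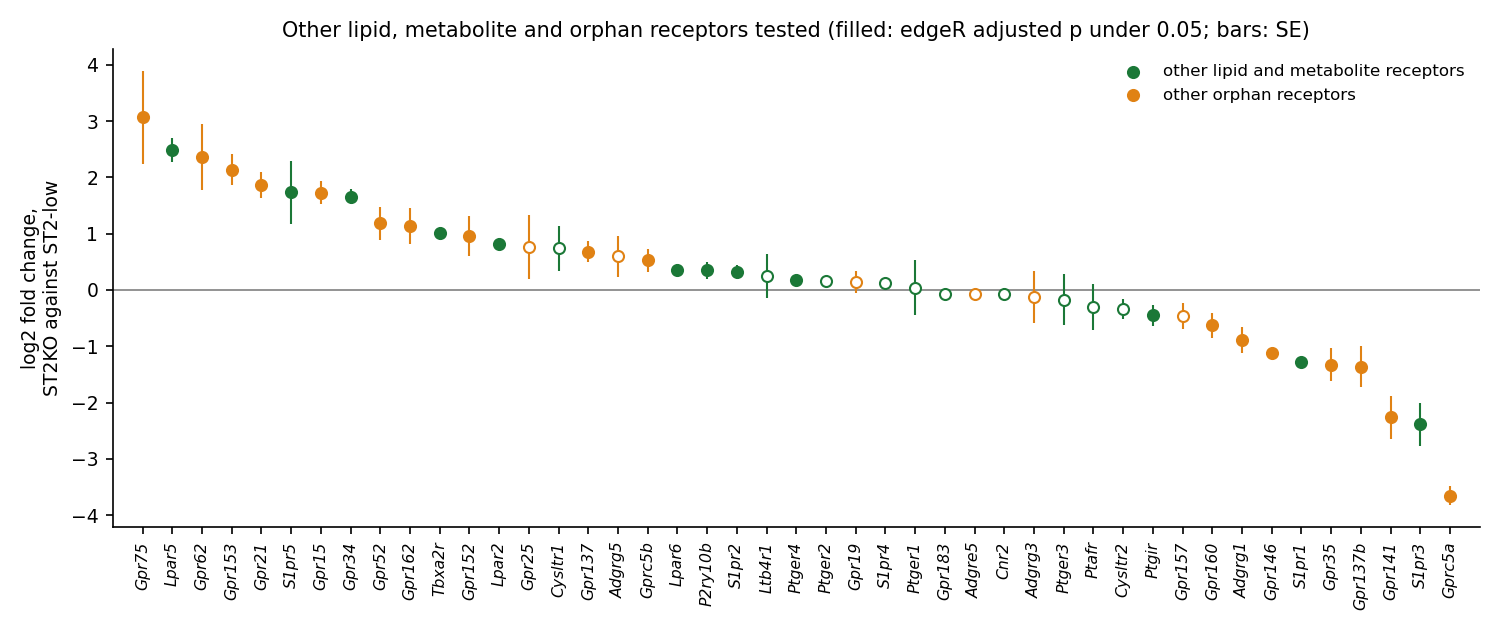
Log2 fold change for ST2KO against ST2-low (vertical axis) of the 45 tested receptors of the lipid and metabolite list and the orphan list, ranked from high to low; bars are the SE, filled points passed the edgeR threshold and colours mark the 2 lists. Of the 45, 19 filled points lie above 0 and 10 below, with Lpar5 at 2.48 and Gpr34 at 1.66 among the highest and Gprc5a lowest at -3.65.

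The G proteins that these receptors use were measured in the same libraries. Gna13, the G13 alpha subunit to which P2ry10 and Gpr55 are known to couple, averaged 444 ± 21.8 CPM in ST2KO, 1301 ± 40.9 CPM in ST2-high and 1152 ± 31.7 CPM in ST2-low. It fell 2.60-fold in ST2KO against ST2-low and 2.93-fold against ST2-high (edgeR adjusted p = 6.73e-20 and 3.17e-21). Gnas, the Gs alpha subunit used by Gpr65, fell to 267 ± 3.57 CPM in ST2KO, 1.30-fold against ST2-low and 1.36-fold against ST2-high (edgeR adjusted p = 9.56e-08 and 4.56e-09). Gna15, a Gq-class subunit of blood cells, was at 15 ± 1.48 CPM in ST2KO, 39.0 ± 3.41 CPM in ST2-high and 12.6 ± 0.906 CPM in ST2-low. It fell 2.61-fold in ST2KO against ST2-high (edgeR adjusted p = 1.20e-13) and rose 3.10-fold in ST2-high against ST2-low (4.97e-14). Of 19 tested subunits, 3 rose and 9 fell in ST2KO against ST2-low, 3 rose and 10 fell against ST2-high, and 7 rose and none fell in ST2-high against ST2-low. Of all tested genes, 33.0% rose and 29.3% fell in the first of these comparisons. In the second 31.9% rose and 32.6% fell, and in the third 15.3% rose and 10.8% fell.

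On the cyclic AMP side, 11 genes of adenylyl cyclases and protein kinase A were tested, of which 5 rose and 1 fell in ST2KO against ST2-low, 4 rose and 1 fell against ST2-high, and 2 rose and 2 fell in ST2-high against ST2-low. Over all tested genes 62.3%, 64.5% and 26.1% were called in these comparisons, in the same order. Adcy7, an adenylyl cyclase of lymphocytes, rose to 331 ± 1.68 CPM in ST2KO, against 183 ± 5.87 CPM in ST2-high and 160 ± 8.67 CPM in ST2-low (edgeR adjusted p = 4.21e-15 and 4.12e-17). Prkar1a, a regulatory subunit that holds protein kinase A inactive, fell to 391 ± 16.3 CPM in ST2KO, against 736 ± 30.6 CPM in ST2-high and 631 ± 32.3 CPM in ST2-low (edgeR adjusted p = 2.35e-15 and 1.83e-12). Of 7 arrestins and receptor kinases, which end receptor signalling, 3 rose and 1 fell in ST2KO against ST2-low, 3 rose and 1 fell against ST2-high, and 1 rose and none fell in ST2-high against ST2-low. These counts can be read against the same shares of all tested genes. Arrb2 was at 97.2 ± 2.18 CPM in ST2KO, 66.3 ± 3.01 CPM in ST2-high and 61.5 ± 3.67 CPM in ST2-low and rose in ST2KO against both (edgeR adjusted p = 2.33e-09 and 7.07e-11).

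The enzymes that make or break down the ligands were mostly expressed at low levels, and 24 of 30 were tested. In all, 6 rose and 9 fell in ST2KO against ST2-low, 4 rose and 8 fell against ST2-high, and 5 rose and 3 fell in ST2-high against ST2-low. The shares of all tested genes called were 62.3%, 64.5% and 26.1% in the same order. Lpcat1, which turns lysophosphatidylcholine back into phosphatidylcholine, was at 32.7 ± 1.70 CPM in ST2KO, 59.1 ± 8.79 CPM in ST2-high and 27.5 ± 2.52 CPM in ST2-low. It rose 2.15-fold in ST2-high against ST2-low (edgeR adjusted p = 1.87e-10) and fell 1.81-fold in ST2KO against ST2-high (edgeR adjusted p = 2.58e-09). Ddhd2, a phospholipase, rose 1.51-fold in ST2KO against ST2-high, at 30.6 ± 2.52 CPM against 20.4 ± 0.672 CPM (edgeR adjusted p = 8.67e-07). Napepld, which makes N-acylethanolamines, rose in ST2KO, at 3.29 ± 0.304 CPM against 0.939 ± 0.184 CPM in ST2-high (edgeR adjusted p = 5.64e-06). The prostaglandin synthase Ptgs2 fell 5.57-fold to 0.833 ± 0.381 CPM in ST2KO, against 4.47 ± 1.36 CPM in ST2-low (edgeR adjusted p = 2.03e-08), and Ptgs1 fell 3.88-fold (8.19e-08); both are also made by myeloid cells, whose markers also fell, and their part was not tested.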

How the data were processed

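Whole-number counts per gene symbol of 9 mouse spleen Treg libraries were used as deposited, per the file headers and the values, with no normalization by the authors. For aligner, genome build, annotation, library kit and strand setting, each was not given in the sources used here. Of 23420 rows, 27 whose symbols had become calendar dates (0.182% to 0.206% of counts) were left out. TMM factors, a filter (filterByExpr, minimum count 10, total 15) that left 12219 genes, and the quasi-likelihood test of edgeR (R 4.3.3, edgeR 4.0.16, limma 3.58.1) were used on all 9 libraries, with 1 coefficient per group. P-values were adjusted by Benjamini-Hochberg over all 12219 genes, with a threshold of 0.05. SE is the log2 fold change over the square root of its F statistic. Exon lengths and overlaps came from GENCODE M21 and promoters from RefSeq.

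The receptors and all gene lists were chosen with earlier results of these data known. Named genes were the 8 receptors, Il1rl1 and Foxp3, up to 4 genes with the smallest adjusted p per list and comparison among those averaging at least 1 CPM in a group, the 3 genes nearest each receptor in course (log2 CPM, prior count 0.5), and genes overlapping a receptor; P2ry10b, Gpr183, S1pr4 and Cnr2 were added after their values were seen. Samples were grouped by their genotype labels. With 3 libraries a group and 11659659 to 43406680 counts, the spread between libraries, not counting error alone, sets the precision. Alternatives were DESeq2 1.42.0 size factors and Wald test, limma-voom, upper-quartile factors, a filter of 5 CPM in 3 libraries or none, a fit of only the 6 libraries compared, a replicate block, counts without the ribosomal precursor Rn45s, and leaving out each library. Results for some listed genes are not reported here.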

Additional observations from a re-analysis of the deposited data

How the results depend on the processing

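Under 18 alternatives, 22 of the 24 fold changes of the 8 receptors kept their sign. The exceptions were both small: Gpr174 for ST2-high against ST2-low ran between -0.00496 and 0.06, and Gpr18 for ST2KO against ST2-high between -0.23 and 0.07. Calls were also followed for the named genes, cell type markers aside, and for the other receptors averaging at least 1 CPM in a group. Of these 136 calls, 22 were lost in at least 1 alternative that tested the gene, and none changed sign. A call whose gene an alternative did not test was not counted as lost. The cause of the losses was not tested. With a filter of 5 CPM in 3 libraries, 17 other receptors were called in ST2KO against ST2-low, where 33 were called otherwise, and 17 in ST2KO against ST2-high, where 32 were, since fewer receptors were tested (25 in place of 49). Leaving out 1 library at a time gave 6952 to 7848 genes called for ST2KO against ST2-low (7607 with all libraries), 7127 to 7891 for ST2KO against ST2-high (7876) and 2478 to 3266 for ST2-high against ST2-low (3189), and 26 to 34, 29 to 32 and 12 to 18 other receptors in the same order. No pairing by replicate number was seen: deviations of same-numbered libraries from their group means correlated between -0.06 and 0.11, and 2 of 9 libraries correlated best with their own number. With 3 libraries a group, this check cannot establish that the samples were unpaired. With a replicate block 7622, 7885 and 3210 genes and 32, 32 and 17 other receptors were called. Depth limits receptors near 1 CPM, such as P2ry13.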
